A study of Mus musculus with 18 samples.

Results

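Potassium channels set the resting potential of heart muscle cells and repolarize them after each beat, and HCN channels carry the pacemaker current. Every gene in the deposited count table whose symbol begins with Kcn, or is Hcn and a number, was taken as a member, which gave 98 genes of the 30072 in the table. They were grouped by the current their protein carries or modulates. Of the 98, 69 passed the filter of at least 0.23 CPM (counts scaled to library size) in at least 6 mice and were tested. The other 29 reached at most 12 counts in any mouse, and Kcna10 had 0 counts in all of them, so changes in those genes were not detectable at this depth.

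The RNA came from the cardiac septum of 18 CD-1 mice, an outbred stock, in 3 groups of 6. The 2wk and 6wk groups had received 1 dose of 25 Gy to the heart and were collected 2 and 6 weeks later. The ctrl group was anesthetized and had CT imaging, but received no treatment dose. All groups were adults of both sexes, aged 8 weeks or more. The labels give no collection time for the ctrl mice. Age at collection and time since handling thus cannot be told apart from irradiation. The submitted labels name the tissue as intraventricular septum, while the study's methods speak of ventricular tissue, and the labels list gamma irradiation where the methods describe X-rays. Total counts per mouse ranged from 11522979 to 15501002.

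In mouse ventricle the fast transient outward current, Ito, repolarizes the cell early. Its pore is formed by Kv4.2 and Kv4.3, encoded by Kcnd2 and Kcnd3, with KChIP2, the product of Kcnip2, as the subunit that brings these channels to the membrane. Slower Kv currents (IK,slow), the inward rectifier IK1, the rapid and slow delayed rectifiers IKr and IKs, ATP-sensitive channels (KATP), acetylcholine-gated channels (IKACh) and background two-pore channels (K2P) complete the set. IKr and IKs are large in human heart and small in adult mouse ventricle.

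The 3 Ito genes that fell together at 6 weeks, and Kcnj3 and Hcn2, which fell under every scaling of the counts tried, are shown first by the 150 bases before the gene start that RefSeq gives on GRCm38.p6, read 5′ to 3′ on the strand of the gene. Capitals mark CACCC or its reverse complement GGGTG, the short core bound by Krüppel-like factors. The windows are chr19:45816064-45816213 on the minus strand for Kcnip2, chr6:21215196-21215345 for Kcnd2, chr3:105451740-105451889 for Kcnd3, chr2:55435820-55435969 for Kcnj3 and chr10:79716484-79716633 for Hcn2, the last 4 on the plus strand.
Kcnip2: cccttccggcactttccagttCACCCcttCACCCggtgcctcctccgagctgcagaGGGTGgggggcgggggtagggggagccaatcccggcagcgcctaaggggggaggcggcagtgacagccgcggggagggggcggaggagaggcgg
Kcnd2: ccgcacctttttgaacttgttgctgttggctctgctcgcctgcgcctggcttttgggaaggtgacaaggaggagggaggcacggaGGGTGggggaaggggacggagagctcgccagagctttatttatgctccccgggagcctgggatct
Kcnd3: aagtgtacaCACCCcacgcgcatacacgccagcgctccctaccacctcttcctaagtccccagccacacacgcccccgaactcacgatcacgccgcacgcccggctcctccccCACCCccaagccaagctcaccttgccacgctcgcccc
Kcnj3: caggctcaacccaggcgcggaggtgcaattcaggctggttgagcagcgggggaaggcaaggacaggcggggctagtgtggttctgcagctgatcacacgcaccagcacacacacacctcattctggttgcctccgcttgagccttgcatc
Hcn2: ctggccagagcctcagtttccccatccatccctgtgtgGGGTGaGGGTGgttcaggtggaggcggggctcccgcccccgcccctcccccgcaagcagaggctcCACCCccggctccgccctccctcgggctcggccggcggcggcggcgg

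The letters occurred 3 times in the windows of Kcnip2 and Hcn2, 2 times in that of Kcnd3, 1 time in that of Kcnd2 and 0 times in that of Kcnj3. They did not mark the genes that fell. Genes called higher held them too, Kcnh1 3 times, Kcna3 2 times, and Kcnn4 and Kcnk13 1 time each. Of other genes called lower, Kcna7 held them 2 times and Kcnt2 1 time, and Hcn4, Kcnj5 and Kcnc1 0 times. The uncalled Kcnj2 and Kcnh2 held them 1 time each. Among 32475 windows of the same length before the starts of all genes in the RefSeq table, 37.5% held CACCC or GGGTG at least once. GC content was 73.3% for Kcnip2, 60.7% for Kcnd2, 67.3% for Kcnd3, 61.3% for Kcnj3 and 76.7% for Hcn2, against a median of 54.0% over those windows. A match of so short a motif is a description of the letters only. Klf15, a Krüppel-like factor known to act on Kcnip2, had a mean of 53.4 ± 13.7 CPM in ctrl and 42.2 ± 9.93 CPM at 6wk (SD, n = 6 each), and its change did not pass the test (log2 fold change -0.34 ± 0.16 SE, adjusted P = 0.13).

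Between genes, levels were compared in TPM, which is per transcript length. In ctrl mice 11 of the 69 tested members had a median of at least 10 TPM, 28 of at least 1 TPM and 41 below 1 TPM. Kcnk3, which encodes the background channel TASK-1, led with a median of 83.4 TPM (75.3 to 88.4), followed by Kcnip2 with 78.9 TPM (62.6 to 109), and these ranges overlapped. Kcnj11, the pore of the KATP channel, came next with 47.7 TPM (40.1 to 59.4). Kcnh2, the pore of IKr, had 28.1 TPM (20.01 to 35.1), below the range of Kcnj11. Kcng2, an electrically silent Kv subunit, had a median of 26.9 TPM but ranged from 6.82 to 55.8 TPM. Kcnj5, Kcnq1, Kcnj3 and Hcn2 followed between 14.8 and 12.2 TPM, with overlapping ranges. Hcn3, Kcnh3, Kcnb2 and Kcnh4 had the lowest control medians of those tested.

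**Figure D1:**
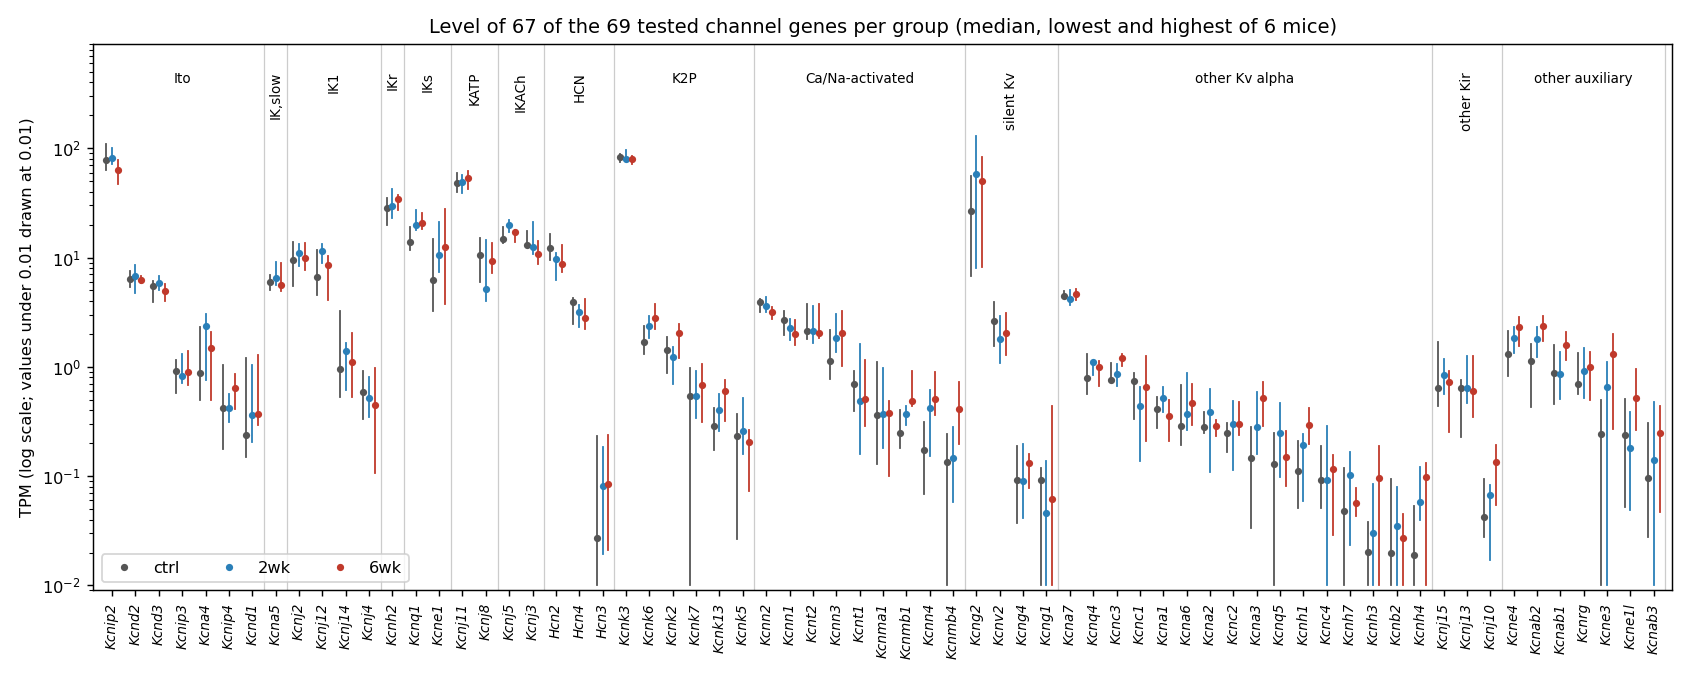
TPM (log scale) of 67 of the 69 tested channel genes, ordered by current and by control median. Points are medians and lines run from the lowest to the highest of 6 mice in ctrl, 2wk and 6wk. Kcnk3, Kcnip2, Kcnj11, Kcnh2 and Kcng2 stand highest, and most genes have control medians below 1 TPM.

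Which channel genes changed after irradiation was asked at each time with the edgeR quasi-likelihood test, adjusted over the 15054 genes tested. At 2wk 4 of 69 members were called at an adjusted P under 0.05, where 5.04% of all genes were called. One was higher (all genes: 3.1%) and 3 were lower (all genes: 1.93%). Kcnc1 alone also passed an absolute log2 fold change above 1 (all genes: 0.903%), and in 3 members the 2 groups did not overlap (all genes: 3.24%). At 6wk 22 of 69 were called against 25% of all genes, 7 higher (all genes: 13.5%) and 15 lower (all genes: 11.5%). Of these, 4, all higher, passed both thresholds (all genes: 5.95%), and in 6 the groups did not overlap (all genes: 9.23%). The median log2 fold change of the members was 0.01 at 2wk and -0.19 at 6wk, beside 0.00 and -0.02 over all genes. Both comparisons share the ctrl mice.

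**Figure D2:**
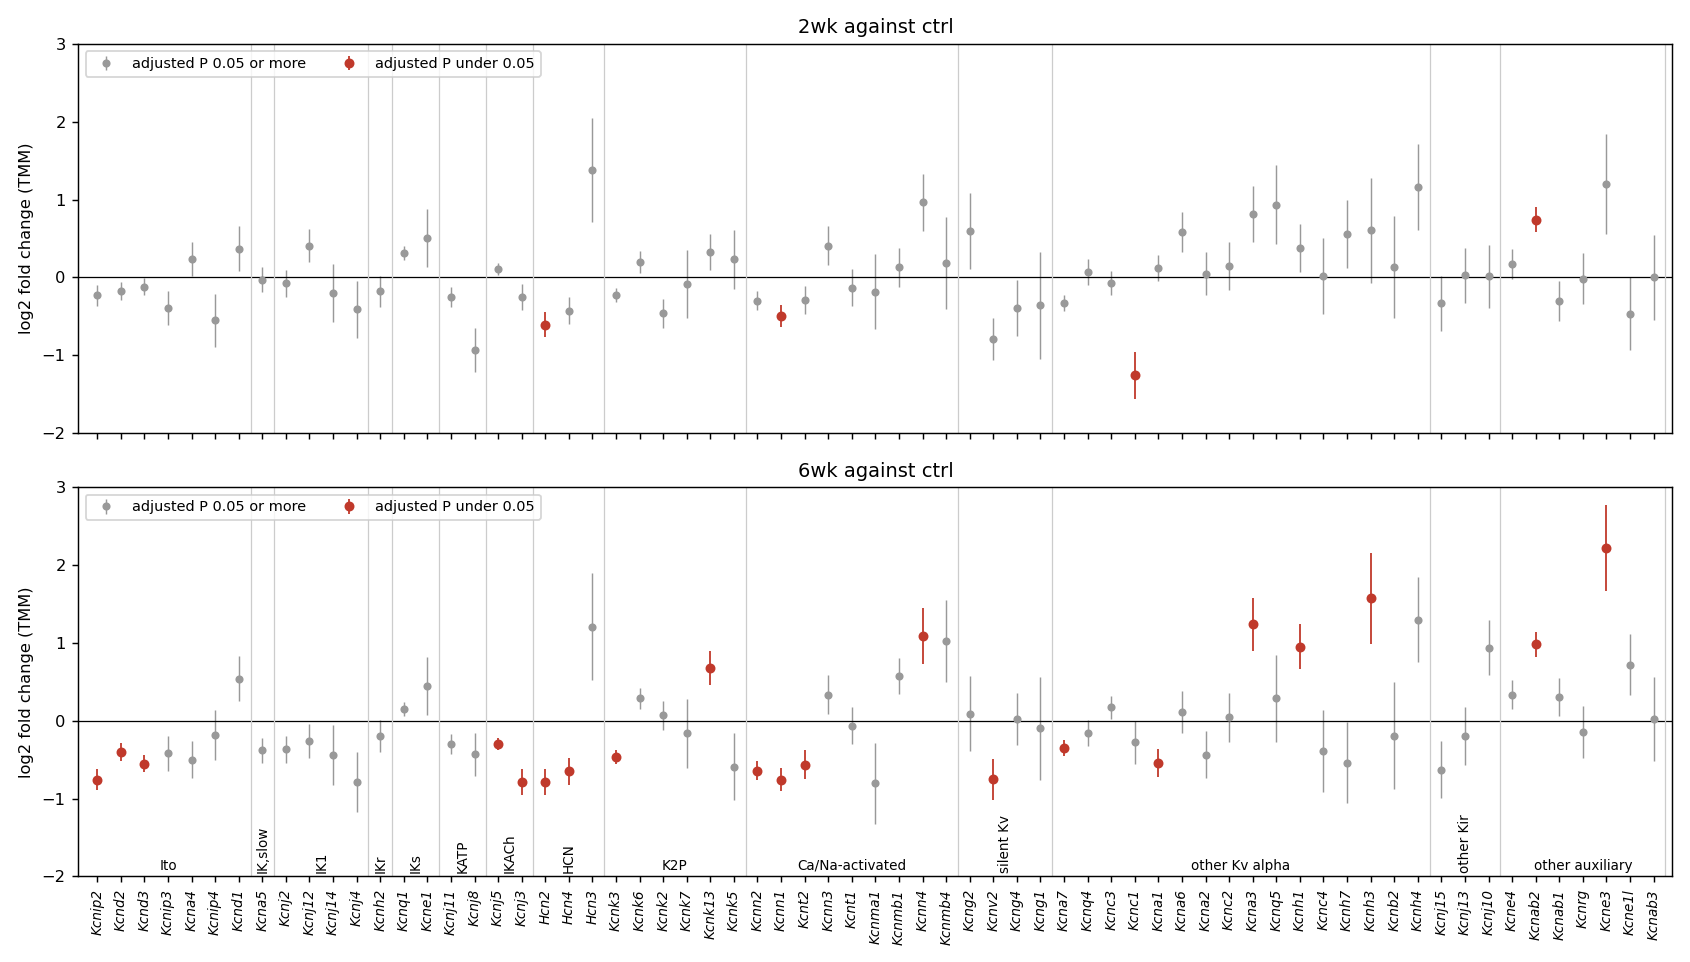
Log2 fold change (TMM scaling, error bars 1 SE) of 67 of the 69 tested channel genes at 2wk and at 6wk against ctrl, by current. The 4 genes called at 2wk and 21 of the 22 called at 6wk are red. At 6wk the called Ito, IKACh and HCN genes lie below 0, and none of the IK1, IKr, IKs and KATP genes is red.

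The split into higher and lower calls depended on whether the scaling centred the bulk of genes. With RLE size factors and with upper quartile scaling, the median of all genes was -0.01 at 6wk. Each gave 7 members called higher and 15 lower, as with TMM. TMM centres the bulk of genes, and its factors were 0.844 to 0.991 in ctrl mice and 1.04 to 1.13 in 6wk mice. The share of counts from mitochondrially encoded genes differed with them, at 19.8 to 25.0% in ctrl and 16.5 to 20.05% at 6wk. With library size only, the median of all genes shifted to 0.24 at 6wk, and 15 members were then called higher and 7 lower. With counts scaled to 7 cardiomyocyte markers, the median of all genes was 0.32, and 18 members were called higher and 5 lower. With log2(TPM + 1) it was 0.29, with 14 higher and 2 lower. At 2wk, library size gave 4 higher and 1 lower around a median of 0.15, log2(TPM + 1) 5 higher and 0 lower around 0.18, and the marker scaling 1 each way around 0.02. Each of the 15 genes called lower at 6wk stayed below the median of all genes under each of these scalings. The 7 called higher stayed above it with library size and the marker scaling, and 4 of them did with log2(TPM + 1). With log2(TPM + 0.1), whose median of all genes was 0.37 at 6wk, all 15 stayed below it and all 7 above it. New scaling factors move every gene and the median by about the same amount. With every scaling of the counts these outcomes were therefore fixed in advance and lend no support to the calls. Only the TPM scales could have come out otherwise. Members lower or higher below are so relative to the bulk of genes with TMM. Those also called lower with library size or the marker scaling, which are relative measures too, are named.

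**Figure D3:**
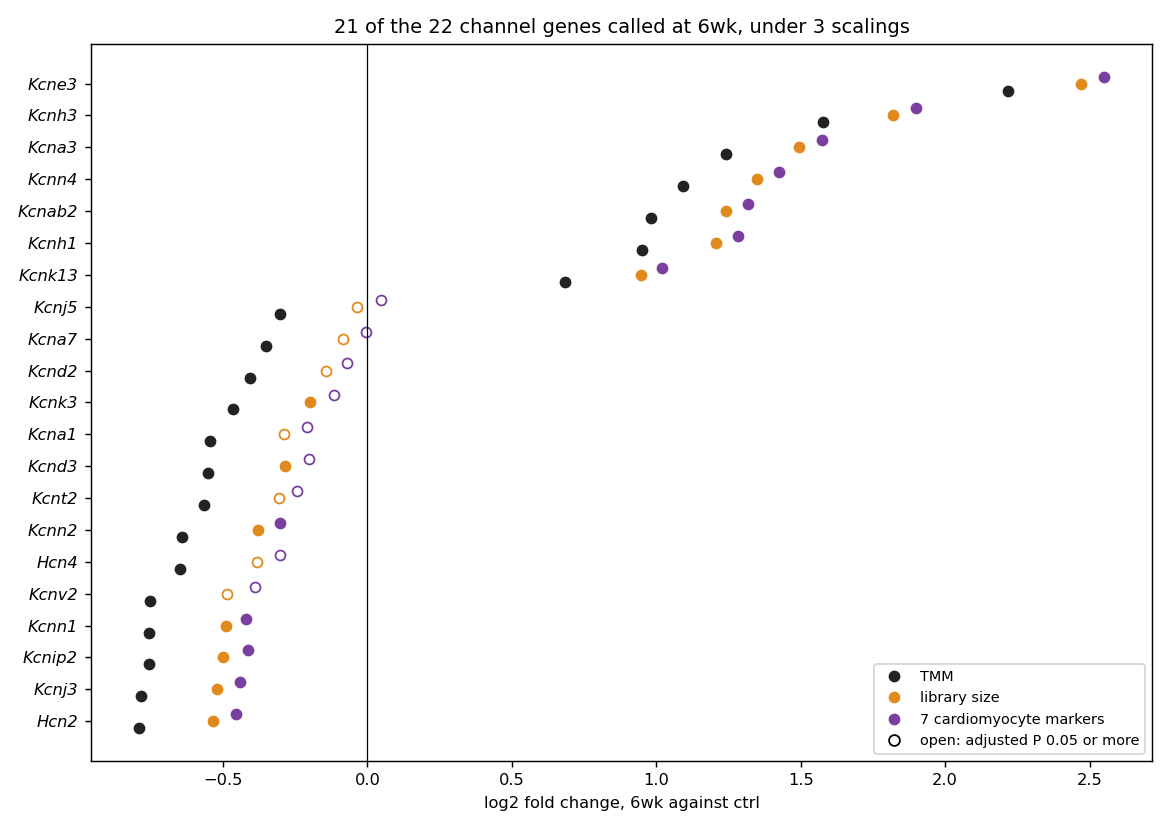
Log2 fold change at 6wk against ctrl of 21 of the 22 called channel genes with TMM, with library size only and scaled to 7 cardiomyocyte markers. Filled points pass an adjusted P under 0.05. Hcn2, Kcnj3, Kcnip2, Kcnn1 and Kcnn2 are filled and below 0 under all 3.

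Cardiomyocyte marker genes fell alongside. The summed level of 7 of them was 80897 to 108195 CPM in ctrl, 88849 to 102602 CPM at 2wk and 72083 to 80117 CPM at 6wk. At 6wk 6 of 7 were called lower (all genes: 11.5%), with a median log2 fold change of -0.46. In bulk tissue, fewer cells of a type and less RNA per cell cannot be told apart. Ctrl mouse 4 stood apart in fibroblast and macrophage markers and 2wk mouse 5 in atrial markers. Without both mice, 2 members were called at 2wk, 23 at 6wk and 4 between the times.

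Of the 7 tested Ito genes, 3 fell at 6wk and none passed the test at 2wk, where 0 also had an unadjusted P under 0.05 and 0 were called by DESeq2 or limma voom. Kcnip2 had 154, 203 and 233 CPM (lowest, median and highest) in ctrl, 155, 163 and 208 CPM at 2wk and 84.8, 118 and 152 CPM at 6wk. Every 6wk mouse lay below every ctrl and 2wk mouse. The log2 fold change at 6wk was -0.75 ± 0.13 (SE, adjusted P = 0.00049), and -0.50 with library size, -0.41 with the marker scaling, both called. From 2wk to 6wk Kcnip2 fell by 0.53 ± 0.13 on the log2 scale (adjusted P = 0.031).

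Kcnd2 had 27.1, 31.3 and 35.0 CPM in ctrl, 19.95, 27.7 and 33.8 CPM at 2wk and 21.4, 23.1 and 26.2 CPM at 6wk. The 6wk mice lay below all ctrl mice and within the spread of the 2wk mice. Kcnd2 fell by 0.41 ± 0.12 at 6wk (adjusted P = 0.015), but was -0.07 and not called with the marker scaling and 0.01 with log2(TPM + 1). Kcnd3 had 19.4, 26.7 and 29.8 CPM in ctrl, 19.7, 23.8 and 26.4 CPM at 2wk and 14.2, 17.9 and 21.6 CPM at 6wk, so its groups overlapped slightly. It fell by 0.55 ± 0.11 at 6wk (adjusted P = 0.0011) and by 0.43 ± 0.11 from 2wk to 6wk (adjusted P = 0.030). Kcnd3 was still called with library size (-0.29) and not with the marker scaling (-0.20).

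The other Ito genes were low. Kcna4, the Kv1.4 pore of the slow component, had a median of 3.62 CPM in ctrl and 2.64 CPM at 6wk (log2 fold change -0.50, adjusted P = 0.14). Kcnd1 differed by 0.54 (adjusted P = 0.18), Kcnip3 by -0.42 (adjusted P = 0.19) and Kcnip4 by -0.19 (adjusted P = 0.73). Among 12 listed partners and regulators of these channels, 11 were tested, 1 rose (all genes: 13.5%) and 1 fell (all genes: 11.5%) at 6wk. Dpp6, a subunit of Kv4 channels, rose from a mean of 0.104 ± 0.115 to 0.579 ± 0.315 CPM (SD, n = 6 each; log2 fold change 2.38 ± 0.55 SE, adjusted P = 0.0021), a level of a few counts per mouse. Cav3, the caveolin of muscle, fell from 39.6 ± 2.96 to 32.7 ± 2.49 CPM (-0.28 ± 0.08 SE, adjusted P = 0.011).

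**Figure D4:**
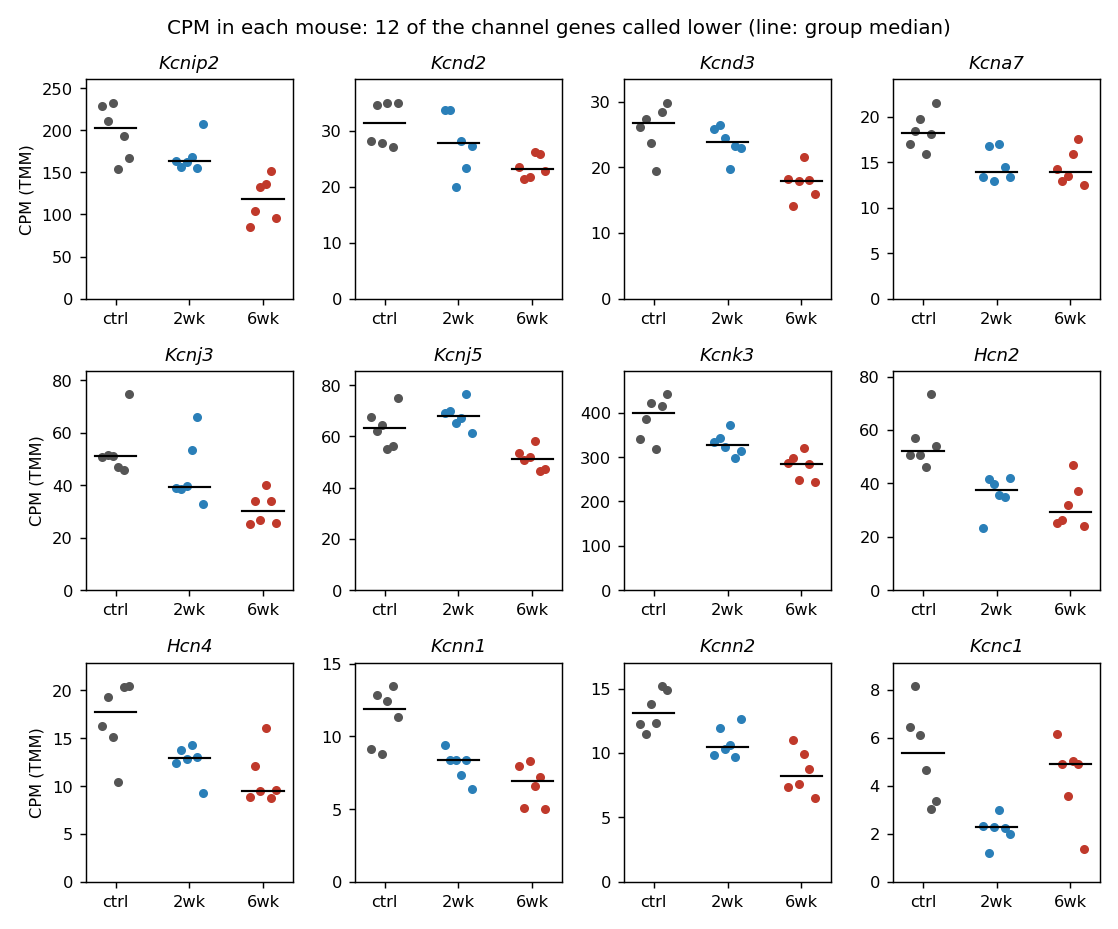
CPM (TMM scaling) in each of the 18 mice for 12 channel genes called lower in at least 1 comparison. Lines are group medians. Kcnip2, Kcnd2, Kcnj3, Kcnn1 and Kcnn2 do not overlap between ctrl and 6wk, and Kcnc1 is lowest at 2wk.

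Of the IK,slow pores, Kcna5 (Kv1.5) had medians of 17.7, 16.5 and 12.8 CPM in ctrl, 2wk and 6wk and was not called (6wk log2 fold change -0.38 ± 0.16 SE, adjusted P = 0.10).

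None of the 4 IK1 genes, the inward rectifiers that hold the resting potential, was called against ctrl at either time. At an unadjusted P under 0.05 there were 0 at 2wk and 1 at 6wk (Kcnj2), and DESeq2 and limma voom called 0. Kcnj2 (Kir2.1) had 29.5, 50.4 and 66.0 CPM in ctrl, 36.5, 46.1 and 51.3 CPM at 2wk and 27.4, 37.8 and 46.5 CPM at 6wk, with wide overlap (6wk log2 fold change -0.36 ± 0.17 SE, adjusted P = 0.14). Kcnj12 had medians of 17.6, 24.4 and 16.2 CPM, and its difference of -0.66 ± 0.21 between 2wk and 6wk missed the threshold with edgeR (adjusted P = 0.077), while DESeq2 and limma voom each called it. Kcnj4 and Kcnj14 were low, at medians of 1.41 and 2.48 CPM in ctrl, with log2 fold changes at 6wk of -0.78 ± 0.39 and -0.44 ± 0.38.

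No IKr, IKs or KATP gene was called by edgeR against ctrl. At an unadjusted P under 0.05 there were 2 at 2wk (Kcnq1 and Kcnj8) and 1 at 6wk (Kcnj11), and DESeq2 called 2 and 0, limma voom 1 and 0. Kcnh2 had 60.3, 99.0 and 128 CPM in ctrl, 48.4, 86.8 and 119 CPM at 2wk and 67.3, 81.3 and 118 CPM at 6wk, and the groups overlapped almost fully (6wk log2 fold change -0.20 ± 0.20 SE, adjusted P = 0.53). Kcnq1, the pore of IKs, had 35.6, 41.4 and 46.2 CPM in ctrl, 42.9, 52.4 and 60.8 CPM at 2wk and 39.6, 45.3 and 53.4 CPM at 6wk. Its 2wk values lay mostly above ctrl and just missed the threshold (log2 fold change 0.31 ± 0.09 SE, adjusted P = 0.052), with DESeq2 calling it and limma voom not. At 6wk Kcnq1 was not called (0.16), but it was called higher with library size (0.42, adjusted P = 0.0031), the marker scaling (0.50, adjusted P = 0.00095) and log2(TPM + 1) (0.52, adjusted P = 0.0014). There the median of all genes was itself raised, to 0.24 with library size, 0.32 with the marker scaling and 0.29 with log2(TPM + 1). This favours higher calls, so these calls add little evidence of a rise of Kcnq1. Kcne1, the accessory subunit of Kcnq1, had medians of 5.21, 6.07 and 6.71 CPM and was not called (2wk 0.50 ± 0.37 SE).

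Kcnj11 (Kir6.2) had 40.9, 49.7 and 63.8 CPM in ctrl, 34.1, 44.8 and 49.8 CPM at 2wk and 31.2, 43.6 and 50.2 CPM at 6wk, overlapping throughout (6wk log2 fold change -0.30 ± 0.13 SE, adjusted P = 0.11). Kcnj8 (Kir6.1), the form of vascular muscle and pericytes, had 12.2, 23.5 and 26.7 CPM in ctrl and 7.62, 8.88 and 24.1 CPM at 2wk. One 2wk mouse lay above the ctrl median, and the difference was not called by edgeR (-0.94 ± 0.28 SE, adjusted P = 0.062) but was by DESeq2 and limma voom.

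Both tested IKACh genes fell at 6wk. Kcnj3 (GIRK1) had 45.7, 51.1 and 74.7 CPM in ctrl, 32.9, 39.3 and 66.2 CPM at 2wk and 25.4, 30.4 and 40.2 CPM at 6wk, with no overlap between ctrl and 6wk. At 6wk it fell by 0.79 ± 0.17 (adjusted P = 0.0019), with values of -0.52 with library size and -0.44 with the marker scaling, both called, and -0.30 with log2(TPM + 1), not called (adjusted P = 0.11). Kcnj5 (GIRK4), its partner, had 55.1, 63.2 and 74.8 CPM in ctrl, 61.4, 68.1 and 76.4 CPM at 2wk and 46.4, 51.3 and 58.3 CPM at 6wk. Its 6wk mice lay below all 2wk mice, with a fall of 0.41 ± 0.08 from 2wk (adjusted P = 0.0078) and 0.30 ± 0.08 from ctrl (adjusted P = 0.0075). The fall of Kcnj5 from ctrl turned to 0.05 with the marker scaling and 0.10 with log2(TPM + 1). GIRK channels are best known in atrium, and the sum of 4 atrial markers ranged from 2.41 to 131 CPM in ctrl, 0.660 to 583 CPM at 2wk and 1.19 to 131 CPM at 6wk, 0 of its 3 tested genes being called by edgeR at 6wk. The highest 2wk value of Kcnj3 was that of 2wk mouse 5, which also had the 583 CPM of atrial markers. Without that mouse and ctrl mouse 4 the fall of Kcnj3 at 6wk was -0.82 (adjusted P = 0.00079). The 2wk mouse is in neither group of that comparison. Ctrl mice 1, 5 and 6, with atrial sums of 117, 115 and 66.7 CPM, stayed in. A part of atrial tissue in the fall was thus not tested by leaving these mice out.

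Of the pacemaker genes, Hcn2, the main HCN form of ventricle, fell at both times. It had 46.1, 52.2 and 73.3 CPM in ctrl, 23.4, 37.7 and 42.1 CPM at 2wk and 24.1, 29.1 and 46.8 CPM at 6wk. All 2wk mice lay below all ctrl mice, and 1 of 6 mice at 6wk reached the ctrl range. The log2 fold change was -0.61 ± 0.16 (SE, adjusted P = 0.039) at 2wk and -0.79 ± 0.17 (SE, adjusted P = 0.0017) at 6wk, and the later one was called under every other tool, scaling and filter and without each mouse, but did not pass an absolute log2 fold change above 1. The 2wk call was lost with library size (-0.46, adjusted P = 0.054), with the marker scaling, with both TPM scales and when any one of 8 mice was left out. Hcn4, the form of the sinus node and conduction system, had 10.5, 17.8 and 20.4 CPM in ctrl, 9.24, 12.96 and 14.3 CPM at 2wk and 8.77, 9.50 and 16.1 CPM at 6wk, and the highest 6wk mouse lay above 2 ctrl mice. It fell by 0.65 ± 0.17 at 6wk (adjusted P = 0.0090), and the call was lost with library size (-0.38, adjusted P = 0.067) and the marker scaling. Hcn3 did not exceed 0.663 CPM and was not called.

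Among 6 tested K2P genes, Kcnk3 fell and Kcnk13 rose at 6wk. Kcnk3 had 318, 400.0 and 441 CPM in ctrl, 299, 328 and 372 CPM at 2wk and 244, 285 and 320.2 CPM at 6wk. Only the highest 6wk mouse reached the lowest ctrl mouse. The log2 fold change of Kcnk3 at 6wk, -0.47 ± 0.09 (adjusted P = 0.00061), became -0.20 and called with library size, -0.12 and not called with the marker scaling. Kcnk3 shares 229 exon bases with an antisense gene, Gm9899, and the strand setting of the counting is not given in the sources used here. Kcnk13 (THIK-1), a channel known from microglia, had 0.521, 0.995 and 1.33 CPM in ctrl and 0.964, 1.55 and 1.94 CPM at 6wk (0.68 ± 0.22 SE, adjusted P = 0.029), with the groups overlapping.

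Among the calcium-activated channels, the genes of a pair of small-conductance types fell at 6wk without overlap. Kcnn1 (SK1) had 8.79, 11.9 and 13.5 CPM in ctrl, 6.38, 8.34 and 9.39 CPM at 2wk and 5.04, 6.92 and 8.28 CPM at 6wk (6wk log2 fold change -0.75 ± 0.14 SE, adjusted P = 0.00087; 2wk -0.50 ± 0.14 SE, adjusted P = 0.0496). Its 2wk call was lost when any one of 14 mice was left out. Kcnn1 shares 132 exon bases with the antisense gene A230052G05Rik. Kcnn2 (SK2) had 11.5, 13.1 and 15.2 CPM in ctrl, 9.68, 10.5 and 12.6 CPM at 2wk and 6.47, 8.18 and 11.03 CPM at 6wk (6wk -0.64 ± 0.12 SE, adjusted P = 0.00079). With library size the 6wk changes were -0.49 for Kcnn1 and -0.38 for Kcnn2, and with the marker scaling -0.42 and -0.30, all called. With log2(TPM + 1) neither was called, at -0.26 for Kcnn1 (adjusted P = 0.060) and -0.20 for Kcnn2 (adjusted P = 0.065).

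Another 4 members fell at 6wk with calls that depended on the scaling. Kcnt2, a sodium-activated channel, fell by 0.57 ± 0.19 (adjusted P = 0.033), from 7.16, 8.87 and 13.5 CPM in ctrl to 5.19, 5.86 and 8.81 CPM. Kcnv2, a silent Kv subunit, went from 7.28, 13.8 and 19.4 CPM to 4.66, 7.62 and 11.2 CPM (-0.75 ± 0.26 SE, adjusted P = 0.044). Kcna7, a Kv1 pore of muscle, went from 15.9, 18.3 and 21.6 CPM to 12.5, 13.9 and 17.5 CPM (-0.35 ± 0.10 SE, adjusted P = 0.016). All 3 overlapped with ctrl. At 2wk Kcnv2 (-0.79 ± 0.26 SE, adjusted P = 0.091) and Kcna7 (-0.33 ± 0.10 SE, adjusted P = 0.065) missed the threshold with edgeR, at values close to those of 6wk. DESeq2 called both at 2wk, and limma voom called Kcna7. Kcnt2 was -0.29 at 2wk (adjusted P = 0.40). Kcna1 (Kv1.1) had 2.78, 3.80 and 4.57 CPM in ctrl, 3.27, 4.28 and 5.06 CPM at 2wk and 1.47, 2.64 and 3.54 CPM at 6wk, below ctrl by 0.55 ± 0.18 (adjusted P = 0.032) and below 2wk by 0.67 ± 0.18 (adjusted P = 0.036). None of these 4 was called with library size or the marker scaling.

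Kcnc1 (Kv3.1), a fast Kv pore best known from neurons, was called at 2wk and not at 6wk. It had 3.02, 5.38 and 8.16 CPM in ctrl, 1.203, 2.27 and 3.01 CPM at 2wk and 1.35, 4.92 and 6.14 CPM at 6wk. All 2wk mice lay below all ctrl mice, with the highest at 3.01 CPM and the lowest ctrl mouse at 3.02 CPM. The log2 fold change was -1.26 ± 0.30 (SE, adjusted P = 0.023) at 2wk and -0.28 ± 0.28 (SE, adjusted P = 0.51) at 6wk, and the difference between the times, 0.98 ± 0.31, missed the threshold with edgeR (adjusted P = 0.070), while DESeq2 called it (0.99, adjusted P = 0.026), as did library size (adjusted P = 0.040) and the marker scaling (1.29, adjusted P = 0.0041). The 2wk call of Kcnc1 was lost with log2(TPM + 1) (-0.23, adjusted P = 0.24), with log2(TPM + 0.1) (-0.59, adjusted P = 0.23) and without ctrl mouse 2 (-1.10, adjusted P = 0.051).

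The 7 members that rose at 6wk were all low, 6 of them below 1 TPM in ctrl, whereas 14 of the 15 that fell were at 1 TPM or more. Of the 69 tested members, 41 were below 1 TPM in ctrl. At a few counts per mouse a modest fall is hard to call, while a rise can carry a gene past the filter. Whether this accounts for the split was not tested. Kcnab2, a β subunit of Kv1 channels also known in leukocytes, was the 1 riser above 1 TPM and rose at both times. It had 1.67, 2.59 and 3.19 CPM in ctrl, 3.23, 3.89 and 5.13 CPM at 2wk and 4.34, 4.63 and 6.09 CPM at 6wk. Every irradiated mouse lay above every ctrl mouse. The log2 fold change was 0.74 ± 0.16 (SE, adjusted P = 0.012) at 2wk and 0.98 ± 0.16 (SE, adjusted P = 0.00019) at 6wk, and both calls held under every other tool, scaling and filter and without each mouse, but neither passed an absolute log2 fold change above 1. Library size and both TPM scales raised the median of all genes at both times, and the marker scaling did at 6wk. This favours higher calls, so calls of a riser kept under these scalings add little.

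Kcne3, an accessory subunit of KCNQ1, had the largest log2 fold change of the members at 6wk, 2.22 ± 0.55 (SE, adjusted P = 0.0055). It had 0.000, 0.211 and 0.278 CPM in ctrl, 0.000, 0.411 and 0.881 CPM at 2wk and 0.222, 0.997 and 1.25 CPM at 6wk, and 5 of 6 mice at 6wk lay above all ctrl mice. The summed counts were 14 in ctrl and 73 at 6wk, a ratio of 4.85 after scaling (exact 95% interval 2.71 to 9.30, counting error only). Kcna3 (Kv1.3), the Kv channel of T cells and macrophages, had 0.0862, 0.398 and 0.624 CPM in ctrl and 0.555, 0.980 and 1.204 CPM at 6wk (1.24 ± 0.34 SE, adjusted P = 0.012). Kcnn4 (KCa3.1), also of leukocytes, had 0.151, 0.357 and 0.750 CPM in ctrl and 0.624, 0.831 and 1.47 CPM at 6wk (1.09 ± 0.36 SE, adjusted P = 0.031). Both overlapped between groups by the lowest 6wk mice.

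Kcnh1 (Kv10.1) had 0.378, 0.807 and 1.46 CPM in ctrl and 1.11, 1.68 and 2.27 CPM at 6wk (0.95 ± 0.29 SE, adjusted P = 0.022). Kcnh3 (Kv12.2) rested on 7 counts in all ctrl mice and 24 in all 6wk mice, with 1 mouse at 0 in each group (1.58 ± 0.59 SE, adjusted P = 0.048), and DESeq2 and limma voom did not call it. No ctrl mouse exceeded 0.139 CPM, so Kcnh3 met the filter through irradiated mice alone. Beside these, 4 of 5 macrophage markers were called higher (all genes: 13.5%) and 1 lower (all genes: 11.5%) at 6wk. The macrophage sum was 69.8 to 184 CPM in ctrl and 156 to 224 CPM at 6wk. Of 6 lymphocyte markers 4 were tested and 3 called higher, with a sum of 0.604 to 1.30 CPM in ctrl and 1.93 to 3.79 CPM at 6wk, and each lymphocyte gene but Cd3e was at 0 in at least 1 mouse. Their part in the rise of these channel genes was not tested.

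**Figure D5:**
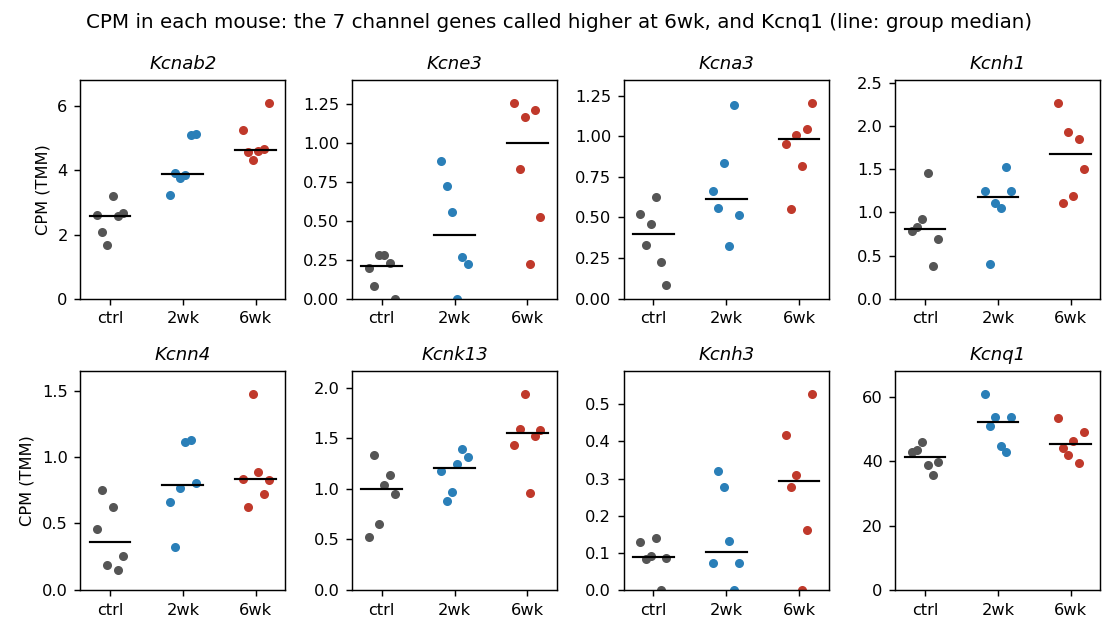
CPM (TMM scaling) in each of the 18 mice for the 7 channel genes called higher at 6wk and for Kcnq1. Lines are group medians. In Kcnab2 every 2wk and 6wk mouse lies above every ctrl mouse, and the others overlap between ctrl and 6wk.

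Between 2wk and 6wk, 5 members were called (all genes: 5.32%), 0 higher (all genes: 3.31%) and 5 lower (all genes: 2.01%). Among them were Kcnip2, Kcnd3, Kcnj5 and Kcna1. None of the 5 passed an absolute log2 fold change above 1 (all genes: 1.14%), and in 3, Kcnip2 and Kcnj5 among them, the times did not overlap (all genes: 3.53%). Of the 69, 7 had an unadjusted P under 0.05 in the upward direction, and DESeq2 called 1 higher and 8 lower. With the marker scaling 15 were called higher and 0 lower around a median of all genes of 0.32, and with library size 1 each way around 0.11. The 5 genes stayed negative under both, and of them Kcnj5 was called with library size (-0.30, adjusted P = 0.028) and none with the marker scaling. The median of the members was -0.12, beside 0.00 over all genes.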

How the data were processed

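RNA was isolated by the authors from the septum of 18 mice, libraries were made with the KAPA RNA HyperPrep kit and sequenced as paired reads on a NovaSeq, and reads were aligned with STAR to GRCm38, quantified with Salmon (1.0 per the labels' processing notes) and summed to genes with tximport. Of the estimated counts deposited, 28.4% were not whole, and no scaling between mice had been applied to them. TPM, deposited from the same quantification by the authors, served for levels between genes and as an alternative. Whether the counting used strand is not given in the sources used here.

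Counts were rounded and analysed with edgeR 4.0.16 in R 4.3.3: a minimum of 0.23 CPM in 6 or more mice (about 3.15 counts at the median depth), TMM scaling, 1 quasi-likelihood fit over the 3 groups without a replicate block, two-sided F tests and Benjamini-Hochberg adjustment over all genes tested. The SE is the absolute log2 fold change divided by the square root of F. The CPM printed are TMM-scaled. The floor of 3 counts was 0.194 to 0.260 CPM per mouse, which like the intervals accounts for counting error alone. Nothing in the sources ties same-numbered mice to a litter, and each mouse counted as 1 replicate. Symbols came from GENCODE M21 for 29380 genes, and 692 had none. The edgeR, limma voom and DESeq2 fits, and no other step, were also run on simulated counts.

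All tested members of Ito, IK,slow, IK1, IKr, IKs, KATP, IKACh and HCN were to be named, and of the other classes those called in at least 1 comparison. The counts include some members that are not reported here. Full values were given for called members and, in a current without one, for the member with the highest control TPM. The members, lists and tests were chosen with earlier results of these data known. Kcng2 and the promoters shown were picked after values were seen. Of 27 members with full values, 16 had 1 RefSeq promoter window, 3 several and 8 none. Alternatives were DESeq2 1.42.0, limma 3.58.1 voom with sample weights, other scalings, filters, thresholds and covariates, log2(TPM + 1) and log2(TPM + 0.1), and leaving out mice. Scaling to cardiomyocyte markers, and leaving out ctrl mouse 4 with 2wk mouse 5, were chosen after seeing the data.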

Additional observations from a re-analysis of the deposited data

Results flagged for a closer look

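In 105 groups of 6 mice, formed by 27 channel genes and 8 marker sums, 7 had a highest mouse whose gap to the next, as a share of the range, exceeded Dixon's 95% critical value, where chance gives about 5.25. Kcnip2 was 208 CPM in 2wk mouse 6 and 155 to 168 CPM in the other 2wk mice. Kcnj3 was 74.7 CPM in ctrl mouse 6 and 45.7 to 51.4 CPM in the other ctrl mice. Kcnn4 was 1.47 CPM in 6wk mouse 3 and 0.624 to 0.889 CPM in the other 6wk mice. The atrial marker sum was 583 CPM in 2wk mouse 5, against at most 80.8 CPM in the others. The fibroblast sum was 1855 CPM in ctrl mouse 4 against 647 to 918 CPM, and its macrophage sum was 184 CPM against 69.8 to 101 CPM. The macrophage sum of 6wk mouse 6 was 224 CPM against 156 to 170 CPM in its group.

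In 4 genes the effects at the 2 times differed by the direct test of 6wk against 2wk, with log2 fold changes of -0.67 for Kcna1, -0.43 for Kcnd3, -0.53 for Kcnip2 and -0.41 for Kcnj5.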

How the results depend on the processing

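Against 4, 22 and 5 members called at 2wk, at 6wk and between the times, DESeq2 called 8, 21 and 9, and an adjusted P under 0.10 gave 8, 26 and 9. Requiring an absolute log2 fold change above 1 left 1, 4 and 0. Between the times, library size only left 2, log2(TPM + 1) left 1, log2(TPM + 0.1) left 0 and the marker scaling gave 15. At 2wk the marker scaling left 2 and leaving out ctrl mouse 4 with 2wk mouse 5 left 2. The causes were not tested. Leaving out single mice gave 1 to 6, 16 to 22 and 2 to 7, with 1 at 2wk without ctrl mouse 2, 2 without ctrl mouse 6 or 2wk mouse 3, and, between the times, 2 without 6wk mouse 1 and 3 without 2wk mouse 1, 2, 3 or 6 or 6wk mouse 3 or 6.

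Same-numbered mice did not deviate together: of 18 pairs 2 correlated above 0.1 (-0.08 to 0.11), and 3 of 18 mice correlated best with their own number. With the replicate number as a block, 4, 17 and 3 members were called.

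The 6wk falls of 3 named genes turned positive. Kcnj5 was 0.0465 with the marker scaling, 0.0980 with log2(TPM + 1) and 0.104 with log2(TPM + 0.1), Kcna7 was 0.0252 and 0.0298 on the TPM scales, and Kcnd2 0.0121 and 0.0148. Over the 31 calls, 7 held under every other tool, scaling, filter and covariate in which the gene was tested, and 17 held without each mouse. Of the 7, all but those of Hcn2 and Kcnip2 at 6wk were higher calls, which the scalings that raise the median of all genes favour. Among the 7, Kcne3 was removed by a stricter filter and so was tested in 14 alternatives, against 15 for the rest. The 14 others lost the call without at least 1 mouse, at adjusted P of at most 0.11, among them Kcnc1 without ctrl mouse 2, Kcnh1 without ctrl mouse 5 or 6wk mouse 1, Kcnk13 and Kcnn4 without any one of 4 mice, Kcna1 (6wk) of 6, Kcnt2, Kcnd3 and Kcnip2 (both from 2wk) of 7, Hcn2 (2wk), Kcnv2 and Kcna1 (from 2wk) of 8, Kcnh3 of 9 and Kcnn1 (2wk) of 14. Kcnh3 fell under the filter in 6 of its 18 fits. Leaving out a mouse turned no direction among these calls. Of members not called in a comparison, 34 genes were called in 43 comparisons under some alternative. For members below 1 TPM, a few counts per mouse set the precision.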

Other observations

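Kcng2, an electrically silent Kv subunit of heart muscle, had the widest spread within groups of the members at 1 TPM or more, with a pooled SD of 0.98 on the log2(CPM + 0.5) scale, ahead of Kcne1 with 0.66 and Kcnj8 with 0.50. Its values were 26.2, 29.0, 30.8, 80.5, 92.3 and 109 CPM in ctrl, 28.6, 31.0, 81.3, 96.5, 154 and 163 CPM at 2wk and 24.2, 27.3, 70.3, 73.7, 78.6 and 118 CPM at 6wk. No mouse lay between 31.0 and 70.3 CPM, and each group held mice on both sides of that gap. Kcng2 was not called in any of the 3 comparisons by edgeR (6wk against ctrl 0.09 ± 0.49 SE, adjusted P = 0.92).

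Markers of other cell types were counted at 6wk, where 13.5% of all genes were called higher and 11.5% lower. Of 6 endothelial markers 2 were called higher and 2 lower. Of 6 mural markers 1 was called higher, of 4 fibroblast markers 1 lower and of 3 tested Schwann and nerve markers 0 by edgeR. With so few markers per list, these counts show no change of a cell type.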
